A study of Mus musculus with 12 samples.

Results

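Glycolysis, the response to low oxygen and the tricarboxylic acid (TCA) cycle were followed through 47 named genes in bulk RNA-seq of cultured CT26 cells with intact or knocked-out Mll3. The genes were listed by name: glycolytic enzymes, members and targets of the HIF pathway, and enzymes of pyruvate dehydrogenase and the TCA cycle. Of the 47, 44 had a row among the 17718 genes of the count table. Ldhb, Epas1 and Egln3 were not analysed here. Of the 44, 42 passed the filter on low counts and were tested, while Aldoc, aldolase C, and Adm, the vasodilator peptide adrenomedullin, were too low to test.

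CT26 is a mouse line derived from a colorectal carcinoma of the BALB/c strain, and Mll3, now named Kmt2c, encodes a methyltransferase of histone H3 lysine 4 that acts at enhancers. The wild-type group (genotype WT, treatment None) and the knock-out group (genotype and treatment Mll3KO) had 3 libraries of polyA RNA each, of the same batch date, grown in serum-containing RPMI medium, and the labels name no exposure to low oxygen for either. The series holds 12 samples, and its CUT&Tag and single-cell samples are not analysed here. The labels do not say whether the knock-out cells are 1 clone or a pool, nor whether libraries of a group are separate cultures. The p-values therefore measure the spread between these libraries only, which may be technical.

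Glycolysis splits glucose into pyruvate. Its preparatory phase spends ATP, and its payoff phase returns ATP and NADH. Pyruvate is either reduced to lactate, as many tumour cells do even in air, or converted by the pyruvate dehydrogenase complex to acetyl-CoA, which citrate synthase feeds into the TCA cycle of the mitochondria. The hypoxia-inducible factor HIF is a dimer of an oxygen-regulated alpha subunit and the stable beta subunit ARNT. In oxygen, prolyl hydroxylases mark the alpha subunit for VHL, which directs it to degradation. When oxygen is low the dimer accumulates and induces glycolytic enzymes, angiogenic factors, mitophagy receptors and pyruvate dehydrogenase kinases. That control acts mostly on the protein, which RNA counts do not measure.

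Values by library are given in the order of wild-type replicates 1, 2 and 3 and of the knock-out columns, named sg1, sg2 and sg3. Libraries held 9559658 to 13406013 counts, of which mitochondrially encoded RNA took 3.20% to 3.44% (wild-type) and 3.44% to 3.81% (knock-out). Kmt2c, the targeted gene, fell from 24.9, 26.2 and 25.0 to 16.0, 11.2 and 14.8 CPM (counts per 1000000, scaled with TMM factors; edgeR adjusted p = 4.33e-08). Of 12 epithelial markers, 7 had no row, Epcam and Cdh1 among them, and the sum of the other 5 was 54.2 to 57.2 CPM in wild-type cells against 162 to 175 CPM after knock-out. Fibroblast markers summed to 1008 to 1025 and 1320 to 1359 CPM (5 of 6 with a row), and leukocyte markers to 14.6 to 17.8 and 14.0 to 18.6 CPM (5 of 8). The leukocyte sum hides opposite changes. Lyz2 rose from a mean of 0.553 to 8.80 CPM (edgeR adjusted p = 1.37e-15), and Csf1r fell from 15.2 to 6.72 CPM (edgeR adjusted p = 2.28e-08). Endothelial markers reached at most 3.11 CPM (3 of 4) and erythroid markers at most 0.865 CPM (1 of 3). The part of these marker changes, epithelial, fibroblast and leukocyte, in the results that follow was not tested.

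Of the 42 tested genes, 32 passed the test, 17 with more RNA and 15 with less RNA after knock-out (edgeR, quasi-likelihood test, Benjamini-Hochberg adjusted p under 0.05 over all 13013 genes tested). That is 76.2% of them, where 66.2% of all genes tested were called. Over all genes, 33.1% were called higher and 33.2% lower. The counts by role and by list given below are to be read beside these shares. Changes of at least 1.5-fold were called for 9 genes higher and 6 lower, where 33.0% of all genes passed in either direction (18.7% higher, 14.4% lower). The groups did not overlap in 34 of the 42 genes, against 68.7% of all genes. The median log2 fold change of the 42 genes, always given as knock-out over wild-type, was 0.029, against 0.015 over all genes tested. Both the count and the median thus lay near those of the whole transcriptome. The split of the calls depended on the scaling between libraries: with upper-quartile scaling, which moved the median of all genes to 0.17, 25 of the 42 were higher and 12 lower, and under library size alone, which moved it to 0.14, 24 were higher and 12 lower. Of all calls, 49.9% were higher under TMM, 63.7% under upper-quartile and 60.5% under library-size scaling. In bulk RNA, fewer cells of a kind and less RNA per cell cannot be told apart.

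**Figure D1:**
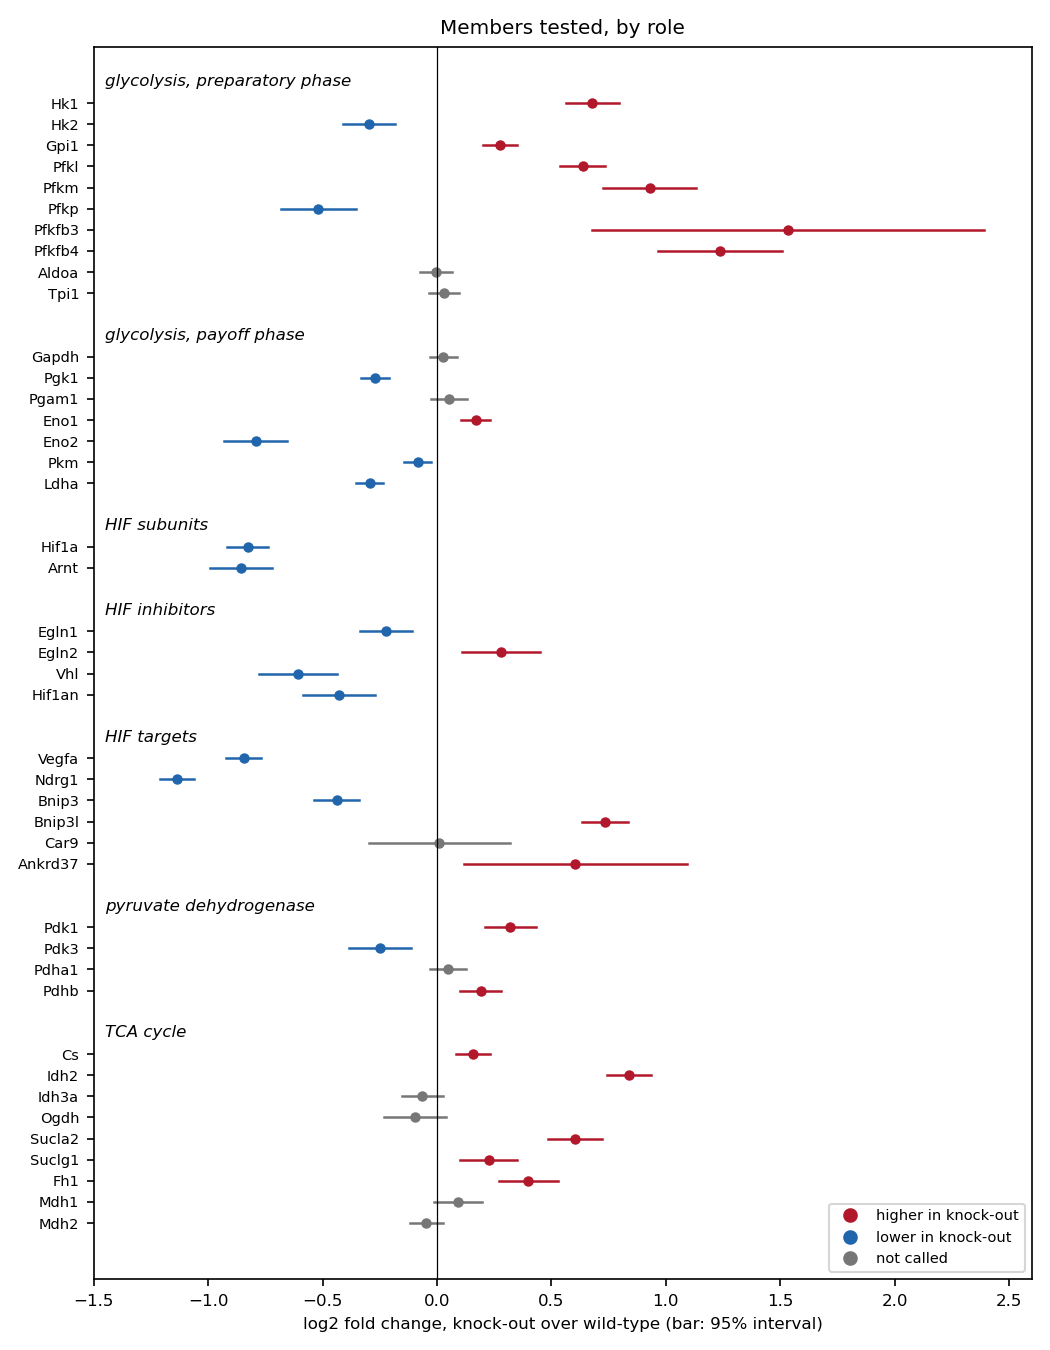
Log2 fold change of each of the 42 tested genes, knock-out over wild-type (x axis), with its 95% interval as a bar, grouped by role and coloured by call (n = 3 libraries per group). The HIF subunits sit at -0.83 and -0.86, the TCA cycle has 5 genes called higher and 0 called lower on the TMM scale, and Hk1 and Hk2, Pfkl and Pfkp, Eno1 and Eno2, and Bnip3 and Bnip3l lie on opposite sides of 0.

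Both tested HIF subunits were lower in knock-out cells. Hif1a (ENSMUSG00000021109, chromosome 12, 73901324 to 73947554, GRCm38.p6), the oxygen-regulated alpha subunit of HIF-1, measured 284, 293 and 266 CPM in the wild-type libraries against 152, 164 and 159 CPM after knock-out. Arnt (ENSMUSG00000015522, chromosome 3, 95434367 to 95497240), the beta subunit, measured 90.8, 100.5 and 89.6 CPM against 49.6, 53.5 and 51.6 CPM. Every knock-out library lay below every wild-type library for both genes. Hif1a fell 1.77-fold (log2 fold change -0.83, SE 0.0450, edgeR adjusted p = 1.57e-23) and Arnt 1.81-fold (-0.86, SE 0.0671, edgeR adjusted p = 5.97e-17). Both were also called by glmTreat, edgeR's test against a minimum change, here 1.5-fold (adjusted p = 1.39e-06 and 0.000120).

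The 4 tested HIF inhibitors were all called, 3 lower and 1 higher. Vhl (ENSMUSG00000033933, chromosome 6, 113623994 to 113631634), the substrate receptor of the ubiquitin ligase that removes HIF alpha subunits, went from 52.3, 54.4 and 49.3 CPM to 37.98, 32.8 and 31.8 CPM. It fell by 0.61 on the log2 scale (SE 0.0854, edgeR adjusted p = 1.17e-08), with no overlap between the groups. Hif1an, the asparaginyl hydroxylase FIH that blocks coactivator binding, fell by 0.43 (SE 0.0787), from 59.1 ± 3.45 to 43.96 ± 3.67 CPM (mean ± SD, n = 3).

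The prolyl hydroxylases parted. Egln1 (PHD2), the main oxygen sensor of the pathway, fell by 0.22 (SE 0.0574, edgeR adjusted p = 0.000625), from 108 ± 5.53 to 92.5 ± 3.61 CPM. It lies on chromosome 8, where the median log2 fold change was -0.35. Relative to that median, subtracted within the fit, Egln1 had 0.13 (edgeR adjusted p = 0.0424), so its direction turned. Its call was lost under upper-quartile scaling (-0.065) and under library size alone (-0.10). Egln2 (PHD1) rose by 0.28 (SE 0.0852, edgeR adjusted p = 0.00326), from 37.8 ± 2.25 to 46.1 ± 3.21 CPM.

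HIF targets moved both ways. Of the 6 tested, 3 fell, 2 rose and Car9 was not called, with a median of -0.21. Vegfa (ENSMUSG00000023951, chromosome 17, 46016993 to 46032377), the growth factor of endothelial cells, measured 447.5, 459.8 and 461 CPM in wild-type and 249.6, 256 and 257 CPM in knock-out cells, a 1.80-fold fall (log2 fold change -0.84, SE 0.0385, edgeR adjusted p = 5.46e-27). Ndrg1 (ENSMUSG00000005125, chromosome 15, 66929318 to 66969641), a stress-responsive gene widely used as a marker of hypoxia, measured 631, 630.1 and 614 CPM against 291, 283 and 279.5 CPM. For both genes the knock-out libraries lay within a narrow range far below the wild-type libraries. The fall of Ndrg1, 2.20-fold (log2 fold change -1.14, SE 0.0371, edgeR adjusted p = 8.99e-34), was the largest fall among the 42 genes.

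The related mitophagy receptors BNIP3 and NIX, which mark mitochondria for autophagy, moved in opposite directions. Bnip3 went from 165, 165 and 168 CPM to 122, 119 and 128 CPM and fell by 0.44 (SE 0.0492, edgeR adjusted p = 1.79e-11). Bnip3l, the gene of NIX (ENSMUSG00000022051, chromosome 14, 66985238 to 67008877), went from 107, 121 and 116 CPM to 186.5, 199 and 186 CPM and rose by 0.73 (SE 0.0504, edgeR adjusted p = 3.58e-19). Neither gene had overlapping groups. The median of chromosome 14 was 0.34, and relative to it Bnip3l had 0.39 (edgeR adjusted p = 1.44e-09).

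Ankrd37 (chromosome 8, 45996908 to 46000414), an ankyrin repeat gene induced by HIF, was low, with 3.77, 3.47 and 4.53 CPM in wild-type and 5.38, 6.49 and 5.96 CPM in knock-out cells, and the groups did not overlap. Its rise of 0.60 (SE 0.243, edgeR adjusted p = 0.0254) was no longer called without wild-type replicate 1 (adjusted p = 0.0608) or 2 (0.0804), or without knock-out library sg2 (0.103) or sg3 (0.0574), and the gene was not tested under a stricter filter, a mean CPM of at least 5. Relative to the median of chromosome 8, -0.35, Ankrd37 had 0.96 (edgeR adjusted p = 0.000525). Its call was kept under upper-quartile scaling (0.76) and library size alone (0.73). Car9, the cell-surface carbonic anhydrase that is a sensitive HIF target, measured 12.8 ± 2.23 and 12.8 ± 0.735 CPM. Its 95% interval ran from -0.30 to 0.32 on the log2 scale, so smaller changes in either direction were not detectable here. Adm had 3, 0 and 2 counts in wild-type and 14, 1 and 7 counts in knock-out libraries.

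**Figure D2:**
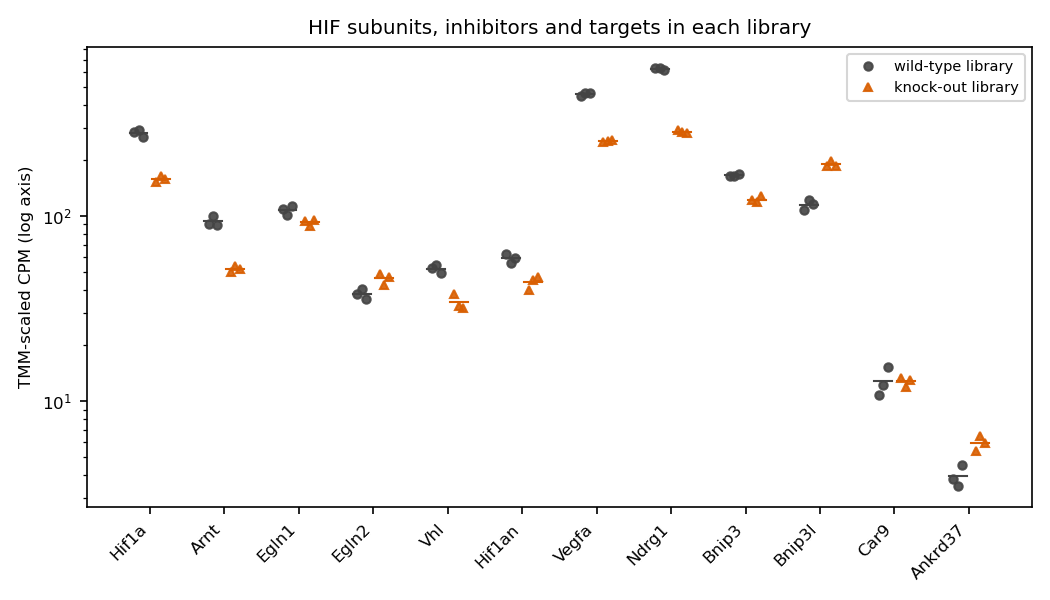
TMM-scaled CPM on a log axis of the 12 tested HIF subunits, inhibitors and targets, with 1 point for each wild-type or knock-out library and lines for the group means (n = 3 each). Hif1a, Arnt, Egln1, Vhl, Hif1an, Vegfa, Ndrg1 and Bnip3 lie lower in every knock-out library, Egln2, Bnip3l and Ankrd37 higher, and the groups of Car9 overlap.

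Promoters of 5 classical HIF targets are shown. They were chosen because each holds the core letters of the HIF response element and because they moved in different directions. Their mix of directions is thus part of the choice and not a result. The core was searched as ACGTG and GCGTG on both strands, so that CACGT and CACGC also count, in the 250 bases before the first listed start of each gene (RefSeq, GRCm38.p6). ACGTG overlaps the E-box CACGTG, which then counts on both strands. Each sequence gives the last 150 bases before that listed start, 5′ to 3′ on the strand of the gene. Matches are in capitals, and the coordinates are those of the printed stretch. The stretches of Ldha and Ankrd37 lie inside the full span of the gene, and that of Pdk1 overlaps it.
Ldha, chr7:46845654-46845803, plus strand: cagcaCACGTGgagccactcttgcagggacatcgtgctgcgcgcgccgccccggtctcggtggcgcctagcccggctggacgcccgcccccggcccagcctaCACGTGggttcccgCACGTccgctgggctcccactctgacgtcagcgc
Pgk1, chrX:106186950-106187099, plus strand: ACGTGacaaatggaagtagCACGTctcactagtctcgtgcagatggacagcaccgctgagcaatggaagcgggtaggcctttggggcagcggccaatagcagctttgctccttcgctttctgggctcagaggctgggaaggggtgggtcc
Bnip3, chr7:138909507-138909656, minus strand: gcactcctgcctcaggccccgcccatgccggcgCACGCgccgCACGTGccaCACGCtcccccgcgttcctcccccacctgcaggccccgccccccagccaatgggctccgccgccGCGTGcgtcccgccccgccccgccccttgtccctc
Pdk1, chr2:71873074-71873223, plus strand: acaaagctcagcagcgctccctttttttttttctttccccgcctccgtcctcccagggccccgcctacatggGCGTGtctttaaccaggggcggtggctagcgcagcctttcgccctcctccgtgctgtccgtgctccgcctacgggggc
Ankrd37, chr8:45999851-46000000, minus strand: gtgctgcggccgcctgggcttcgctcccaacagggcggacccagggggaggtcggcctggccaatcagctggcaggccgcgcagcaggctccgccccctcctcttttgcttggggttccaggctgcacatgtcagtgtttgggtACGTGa

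In the printed stretches Ldha held 5 matches, of which 4 lie in 2 E-boxes, and Bnip3 held 5, of which 2 lie in 1 E-box. Ldha, Pgk1 and Bnip3 fell, and Pdk1 and Ankrd37 rose. Of the HIF targets not shown, Vegfa held 0 matches in the 250 bases, Car9 held 1 and Adm held 2. A promoter was found for 43 of the 47 genes, and Ndrg1 and Bnip3l were among those without one. Among the 39 tested genes with a promoter, 28 (71.8%) held a match in the 250 bases: 12 of 16 called higher, 9 of 14 called lower and 7 of 9 not called. The same search found a match in 38.6% of the 32851 promoters of the RefSeq table and in 57.2% of the 9400 tested genes that have one. A match describes these letters only.

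Of 43 further HIF targets, 32 were tested and split evenly, with 13 higher and 13 lower and a median of -0.0081. Among the targets listed by name whatever their change, Mxi1, a MYC antagonist, went from 29.5, 29.4 and 26.96 CPM to 52.9, 50.4 and 51.5 CPM and rose by 0.85. P4ha1, a collagen prolyl hydroxylase, rose by 0.68, Ddit4 (REDD1), an inhibitor of mTORC1, rose by 0.55, Angptl4, a lipoprotein lipase inhibitor, rose by 0.83, and the histone demethylase gene Kdm3a rose by 0.46. Hilpda, a lipid droplet protein, fell by 0.61, and the lysyl hydroxylase gene Plod2 was not called (0.047, 95% interval -0.085 to 0.18) except under upper-quartile scaling (0.20) and library size alone (0.17). The largest rises of the list, named after their values were seen, were those of Zfp395 (1.44), Pfkfb1 (1.37), Bhlhe41 (1.08) and Tfrc (1.03), all with edgeR adjusted p of 7.44e-05 or less. Zfp395 lies on chromosome 14, whose median was 0.34. The largest falls, also named after their values were seen, were those of Wsb1, a substrate receptor of a ubiquitin ligase (-1.06), the stanniocalcin gene Stc2 (-1.03), the immediate early gene Ier3 (-0.84) and Hmox1, haem oxygenase (-0.75), all with edgeR adjusted p of 2.12e-07 or less. At 1.5-fold or more, 9 genes of the list were called higher and 6 lower, where 18.7% and 14.4% of all genes were. Hmox1 lies on chromosome 8 and had -0.40 relative to it. The median of chromosome 10, which holds P4ha1 and Ddit4, was 0.36, and relative to it they had 0.32 and 0.20, both still called. Of 13 tested genes of HIF regulation outside the 47, 5 were higher and 6 lower, with a median of 0.092. That median hides large changes both ways: the log2 fold changes ran from -1.22 to 1.51. At 1.5-fold or more, 2 of these genes were called higher and 4 lower.

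The preparatory phase of glycolysis held the larger rises. Of 10 tested genes, 6 rose and 2 fell, with a median of 0.46. That is 80% called, where 66.2% of all genes tested were. Hk1 (ENSMUSG00000037012, chromosome 10, 62268855 to 62379920), the widely expressed hexokinase, measured 75.04, 75.97 and 82.2 CPM in wild-type and 123, 130.3 and 119 CPM in knock-out cells. Hk2, the inducible hexokinase of many tumours and a HIF target, measured 112, 110.4 and 121 CPM against 98.1, 90.6 and 90.7 CPM. These genes thus moved in opposite directions: every knock-out library was higher for Hk1 and lower for Hk2. Hk1 rose by 0.68 (SE 0.0578, edgeR adjusted p = 1.53e-15) and Hk2 fell by 0.30 (SE 0.0567, edgeR adjusted p = 7.33e-06). Relative to the medians of their chromosomes, Hk1 had 0.32 and Hk2 -0.32.

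The phosphofructokinases, which commit sugar to glycolysis, also parted. Pfkl, the liver type (ENSMUSG00000020277, chromosome 10, 77986947 to 78009807), went from 117, 113 and 113 CPM to 186, 175 and 173 CPM. Pfkm, the muscle type (ENSMUSG00000033065, chromosome 15, 98092589 to 98132447), went from 22.00, 19.6 and 21.2 CPM to 42.4, 41.9 and 35.7 CPM. Pfkp, the platelet type, went from 56.1, 55.7 and 56.1 CPM to 38.9, 35.5 and 43.05 CPM. None of the 3 had overlapping groups: Pfkl rose by 0.64 (SE 0.0495), Pfkm rose by 0.93 (SE 0.101) and Pfkp fell by 0.52 (SE 0.0811), with edgeR adjusted p of 4.55e-17, 7.58e-12 and 1.44e-07. Pfkl had 0.28 relative to the median of chromosome 10 (adjusted p = 2.05e-06).

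Of the bifunctional regulators of phosphofructokinase, which make and degrade its allosteric activator, Pfkfb3 and Pfkfb4 rose from low levels. Pfkfb4 (ENSMUSG00000025648, chromosome 9, 108988272 to 109032236) measured 9.74, 10.9 and 10.6 CPM in wild-type and 22.6, 26.8 and 23.8 CPM in knock-out cells (log2 fold change 1.24, SE 0.134, edgeR adjusted p = 7.04e-12). Pfkfb3 rested on 13, 4 and 11 counts in wild-type and 32, 22 and 28 counts in knock-out libraries, which is 1.02, 0.408 and 1.19 CPM against 3.13, 1.90 and 2.69 CPM. No wild-type library reached a knock-out library in either gene, and Pfkfb3 had the largest estimate of the 42 genes and also the widest error (1.53, SE 0.427, edgeR adjusted p = 0.00144). Of the other such enzymes, named after their values were seen, Pfkfb1 also rose, from 1.96 ± 0.778 to 5.24 ± 0.971 CPM (log2 fold change 1.37, SE 0.302, edgeR adjusted p = 7.44e-05). Pfkfb2 was not called and had overlapping groups, at 5.54 ± 1.48 and 5.74 ± 1.15 CPM (0.068, 95% interval -0.40 to 0.54). Gpi1, the isomerase between hexokinase and phosphofructokinase, rose by 0.27 (SE 0.0375). The aldolase Aldoa and the triose-phosphate isomerase Tpi1 were not called, with 95% intervals of -0.073 to 0.066 and -0.036 to 0.097. Both were called higher under upper-quartile scaling (0.15 and 0.19) and library size alone (0.12 and 0.15), and Tpi1 also under the stricter filter (0.075). Relative to its chromosome, Aldoa was called lower instead (-0.088, edgeR adjusted p = 0.0222). The aldolase C gene Aldoc had 5, 3 and 4 counts in wild-type and 4, 14 and 5 counts in knock-out libraries.

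The payoff phase moved less, with 4 of 7 tested genes lower and 1 higher and a median of -0.084. That is 71.4% called, near the 66.2% of all genes tested. The count of higher genes depended on the setting: 4 with upper-quartile scaling, 3 with library size alone or with the stricter filter, and 2 relative to chromosome medians. Gapdh, often used as a reference gene, measured 2371, 2411 and 2413 CPM in wild-type and 2418, 2479.7 and 2439 CPM in knock-out cells, with a log2 fold change of 0.028 (95% interval -0.030 to 0.087). The groups did not overlap, but by a margin smaller than the spread within either group. The mutase gene Pgam1 was not called either (0.052, -0.026 to 0.13). Gapdh and Pgam1 were called higher under upper-quartile scaling (0.19 and 0.21), under library size alone (0.15 and 0.17) and under the stricter filter (0.073 and 0.097).

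Among the genes with less RNA in knock-out cells were Pgk1, whose product makes the first ATP of the payoff phase, and Ldha, whose product reduces pyruvate to lactate. Pgk1 fell by 0.27 (SE 0.0310, edgeR adjusted p = 3.30e-11), from 1553 ± 25.03 to 1286.5 ± 21.8 CPM. Ldha measured 2227, 2239.7 and 2152 CPM in wild-type and 1798, 1791 and 1807 CPM in knock-out cells, and fell by 0.29 (SE 0.0300, edgeR adjusted p = 8.26e-13). The knock-out libraries of Ldha lay close together and below the wild-type ones. Pkm, the pyruvate kinase gene of most proliferating cells, measured 1858.5, 1893 and 1898 CPM against 1779, 1779.7 and 1771 CPM, also without overlap. Its fall of 0.084 (SE 0.0299, edgeR adjusted p = 0.0118) was not called with the stricter filter (-0.039), and it turned with library size alone (0.037) and upper-quartile scaling (0.073).

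The enolases moved in opposite directions too. Eno1, the ubiquitous enzyme, rose by 0.17 (SE 0.0312), from 1364 ± 37.2 to 1533 ± 17.7 CPM. Eno2 (ENSMUSG00000004267, chromosome 6, 124760053 to 124769673), the neuron-type enolase, went from 86.3, 91.2 and 86.1 CPM to 50.8, 47.05 and 54.4 CPM. It fell 1.73-fold (log2 fold change -0.79, SE 0.0684, edgeR adjusted p = 2.43e-15) and had no overlap between groups. Gapdh, Pgk1, Pgam1, Eno1, Ldha, Tpi1 and Aldoa have processed copies in the mouse genome that can share their reads, so their levels are uncertain. Whether counting used strand is not known here, so reads of genes that overlap on opposite strands cannot be told apart.

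As a sum, the 18 glycolytic genes with a row gave 12077, 12199 and 12140.4 CPM in wild-type and 11661, 11826 and 11788 CPM in knock-out libraries. That is a change of -3.14% on the TMM scale, whereas as a share of all counts they took 1.15% to 1.18% (wild-type) and 1.22% to 1.23% (knock-out). The direction of this sum thus turned with the scaling. Among 21 tested genes of glucose and lactate handling outside the 47, 10 were higher and 7 lower, with a median of 0.15. Slc16a1 (MCT1), a lactate transporter, went from 369, 358 and 328 CPM to 241, 222 and 243 CPM and fell by 0.58. Tigar, a phosphatase that lowers the activator of phosphofructokinase, fell by 0.56, and Slc16a3 (MCT4), the HIF-inducible lactate exporter, fell by 0.37, a call lost with upper-quartile scaling (-0.21). Slc2a1 (GLUT1), the main glucose transporter of many tumour cells, fell by 0.18 (edgeR adjusted p = 0.0124). That call was lost when wild-type replicate 2 was left out (adjusted p = 0.0910), under the stricter filter (0.0577), under upper-quartile scaling (log2 fold change -0.021) and under library size alone (-0.056). Slc2a3 was not analysed here.

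Ratios of related genes within 1 library do not depend on the scaling between libraries. They are ratios of counts, not corrected for gene length, so only their change is read. The ratio of Hk2 to Hk1 was 1.50, 1.45 and 1.47 in wild-type and 0.795, 0.695 and 0.764 in knock-out libraries, a difference of -0.97 on the log2 scale. That of Pfkp to Pfkl was 0.481, 0.493 and 0.495 against 0.209, 0.203 and 0.249, a difference of -1.16. In both pairs every knock-out library lay below every wild-type library. The ratio of Bnip3l to Bnip3 went from 0.649, 0.733 and 0.689 to 1.53, 1.68 and 1.45, a difference of 1.17, and was higher in every knock-out library.

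The ratio of Eno2 to Eno1 moved by -0.96, that of Pdk3 to Pdk1 by -0.57, that of Egln2 to Egln1 by 0.50 and that of Pfkm to Pfkl by 0.29. In these 7 pairs the groups did not overlap, and the two-sided exact permutation test gave p = 0.1 each (Benjamini-Hochberg adjusted 0.129 over 9 pairs), which is the smallest p that 3 libraries against 3 allow. The pair Pfkfb4 to Pfkfb3 overlapped (-0.45, exact permutation p = 0.5, adjusted 0.5), as did Aldoc to Aldoa (0.72, exact permutation p = 0.3, adjusted 0.338), and each rests on 32 counts or fewer per library for 1 of its genes. The sign for Pfkfb4 to Pfkfb3 turned without wild-type replicate 2 (0.067).

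**Figure D3:**
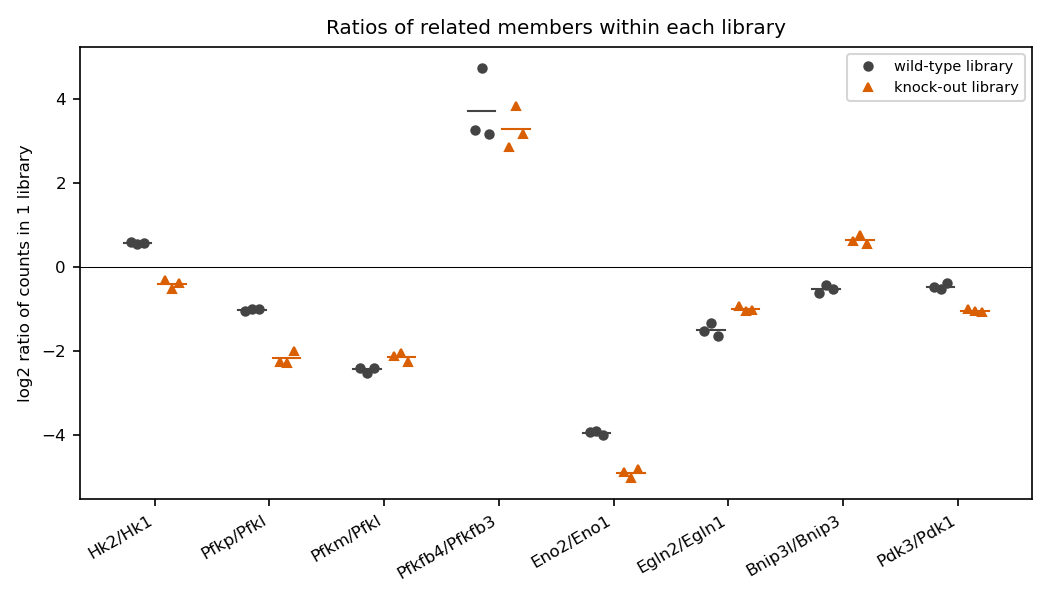
Log2 ratio of the counts of 2 related genes within each wild-type or knock-out library (1 point each) for 8 pairs, with lines for the group means. The groups overlap for Pfkfb4 to Pfkfb3 alone among the pairs shown. Counts are not corrected for gene length, so the change of a ratio is read and not its sign.

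At the entry to the TCA cycle, the 4 tested genes among the 42 all changed by under 1.5-fold, 2 higher, 1 lower and Pdha1 not called. Pdha1, the catalytic E1 alpha subunit of pyruvate dehydrogenase, measured 374, 348 and 340.1 CPM in wild-type and 352, 374 and 372 CPM in knock-out cells, with overlapping groups and a log2 fold change of 0.048 (95% interval -0.032 to 0.13). It was called higher with upper-quartile scaling (0.21), library size alone (0.17) and the stricter filter (0.093). Pdhb, the E1 beta subunit, rose by 0.19 (SE 0.0446, edgeR adjusted p = 0.000185). It lies on chromosome 14, relative to whose median it had -0.15 (adjusted p = 0.00219), so its direction turned. Of the kinases that switch the complex off, Pdk1, a HIF target, rose by 0.32 (SE 0.0554), from 99.4 ± 7.08 to 124 ± 1.45 CPM. Pdk3 fell by 0.25 (SE 0.0678, edgeR adjusted p = 0.00106), from 71.4 ± 2.55 to 59.96 ± 1.38 CPM, a call that was lost with upper-quartile scaling (-0.093) and library size alone (-0.13).

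Of 10 tested genes of pyruvate entry outside the 47, 1 rose and 4 fell, with a median of -0.039. The largest falls were those of Dld and Pdhx, which were named after their values were seen. Dld, the E3 subunit that pyruvate dehydrogenase shares with related complexes, went from 463, 476 and 441 CPM to 239.6, 241.5 and 225 CPM and fell by 0.97 (SE 0.0404, edgeR adjusted p = 8.98e-29). Pdhx, the subunit that anchors E3 in the complex, went from 61.8, 61.8 and 59.8 CPM to 39.4, 41.8 and 36.3 CPM and fell by 0.64 (SE 0.0782, edgeR adjusted p = 2.21e-10). Neither had overlapping groups. The riser was Pdp1, a phosphatase that switches pyruvate dehydrogenase on, which went from 18.2, 14.9 and 14.9 CPM to 38.4, 41.4 and 45.1 CPM (log2 fold change 1.37, SE 0.107, edgeR adjusted p = 6.54e-17). Dlat, the E2 subunit, fell by 0.16 (SE 0.0526), a call lost with upper-quartile scaling (-0.0042) and library size alone (-0.040). Of the mitochondrial pyruvate carrier, Mpc2 was not called (0.14, SE 0.0852) except with upper-quartile scaling (0.30), library size alone (0.26), the stricter filter (0.18) and relative to its chromosome (0.34). Mpc1 was at the threshold (-0.24, edgeR adjusted p = 0.0497). Its call was lost without wild-type replicate 1 (adjusted p = 0.0582) or 2 (0.202), without knock-out library sg1 (0.295) or sg2 (0.0577), with DESeq2 (0.0971), with the stricter filter (0.109) and with upper-quartile and library-size scaling (0.523 and 0.352).

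In the TCA cycle, 5 of 9 tested genes were higher and 0 lower, with a median of 0.16. That is 55.6% called, below the 66.2% of all genes tested. The count of lower genes was 3 relative to chromosome medians, namely Cs (-0.20), Idh3a (-0.11) and Ogdh (-0.15), and 1 without wild-type replicate 3, namely Mdh2 (-0.082). Idh2 (ENSMUSG00000030541, chromosome 7, 80094845 to 80118608), the mitochondrial NADP-dependent isocitrate dehydrogenase, measured 106, 107.5 and 105 CPM in wild-type and 188, 194 and 187 CPM in knock-out cells. It rose 1.79-fold (log2 fold change 0.84, SE 0.0488, edgeR adjusted p = 3.03e-22), and its groups lay far apart. Sucla2 (ENSMUSG00000022110, chromosome 14, 73552786 to 73596144), the ADP-specific beta subunit of succinyl-CoA synthetase, went from 74.5, 68.3 and 70.5 CPM to 111, 109 and 105 CPM, without overlap. Its log2 fold change of 0.60 (SE 0.0596) became 0.26 relative to the median of chromosome 14 and stayed called (edgeR adjusted p = 0.000152). Suclg1, the alpha subunit of the same enzyme, rose by 0.23 (SE 0.0626).

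Fh1, fumarase, rose by 0.40 (SE 0.0640, edgeR adjusted p = 2.53e-07), from 66.01 ± 3.46 to 86.9 ± 2.44 CPM. Cs, citrate synthase, which opens the cycle, measured 437, 456 and 426 CPM in wild-type and 483, 495 and 491 CPM in knock-out cells, without overlap, and rose by 0.16 (SE 0.0368, edgeR adjusted p = 0.000203). It lies on chromosome 10, relative to whose median of 0.36 it had -0.20 (adjusted p = 3.39e-06), so its direction turned. Idh3a, Ogdh, Mdh1 (cytosolic, counted here with the cycle) and Mdh2, which encode enzymes or subunits between isocitrate and oxaloacetate, were not called. Their log2 fold changes were -0.064 (95% interval -0.15 to 0.027), -0.094 (-0.23 to 0.041), 0.092 (-0.014 to 0.20) and -0.047 (-0.12 to 0.026). Upper-quartile scaling, library size alone and, for Mdh1, the stricter filter called Mdh1 (0.25, 0.21 and 0.14) and Mdh2 (0.11 and 0.075) higher.

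The rest of the cycle moved both ways, with more falls than rises. Of 13 tested genes outside the 47, 2 rose and 6 fell, with a median of -0.055. The list includes assembly factors of succinate dehydrogenase, of which Sdhaf4 rose, Sdhaf2 and Sdhaf3 fell and Sdhaf1 was not called. Of the enzyme genes, Suclg2 rose by 0.41 (edgeR adjusted p = 1.90e-09) and Dlst fell by 0.28 (edgeR adjusted p = 4.71e-07). These genes were named after their values were seen. Of the succinate dehydrogenase subunits, Sdhb fell by 0.21, a call lost with upper-quartile scaling (-0.050) and library size alone (-0.086). Sdha (-0.018) and Sdhc (0.097) were not called on the TMM scale. Sdhc was called higher without knock-out library sg2 (0.16), with the stricter filter (0.14), with upper-quartile and library-size scaling (0.25 and 0.22) and relative to its chromosome (0.30). Sdhd fell by 0.14 (edgeR adjusted p = 0.0413), a call lost without wild-type replicate 1 (adjusted p = 0.264), without knock-out library sg2 (0.278), with DESeq2 (0.0987), with the stricter filter (0.171) and with upper-quartile and library-size scaling (0.770 and 0.839).

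Among 17 tested neighbours of the cycle in metabolism, 9 rose and 5 fell, with a median of 0.19. Acly, which turns exported citrate into cytosolic acetyl-CoA, went from 184, 189.9 and 184 CPM to 301, 313 and 305 CPM and rose by 0.72. Idh1, the cytosolic isocitrate dehydrogenase, rose by 0.66. The aspartate aminotransferase gene Got2, on chromosome 8, fell by 0.41, and relative to its chromosome it had -0.061 and no call (edgeR adjusted p = 0.197). Over all 105 tested genes of the 6 further lists, 39 were higher and 41 lower, which is 76.2% called, with a median of 0.037.

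Genes that lie close together on a chromosome can share a change, so each gene was set beside the median of the 20 nearest tested genes, 10 on either side (15 for Pdhb). Of the 42 genes, 27 had the sign of their neighbours. The share over all genes tested was not computed, so this count is a description only. Pfkl (0.64) lay among genes with a median of 0.67, Hk1 (0.68) among 0.47, Pfkm (0.93) among 0.52, Arnt (-0.86) among -0.52 and Bnip3 (-0.44) among -0.50. The part of such regional shifts in these 5 changes was not tested.

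For 10 genes the change went beyond that of the neighbours by over 1.5-fold in the direction of the gene itself: Pfkfb3, Pfkfb4, Eno2, Hif1a, Vhl, Vegfa, Ndrg1, Ankrd37, Idh2 and Fh1. How many of all tested genes do so was not computed, so the count is not read as particular to these pathways. Fh1 (chromosome 1, 175601378 to 175625635) rose by 0.40 among neighbours with a median of -0.84, of which 15 of 20 fell and 1 rose. Eno2 fell by 0.79 among neighbours with a median of 0.52, of which 14 of 20 rose and 1 fell. Both thus moved against their surroundings. Hif1a fell by 0.83 among neighbours with a median of -0.045, and Ndrg1 fell by 1.14 among neighbours with a median of 0.025.

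**Figure D4:**
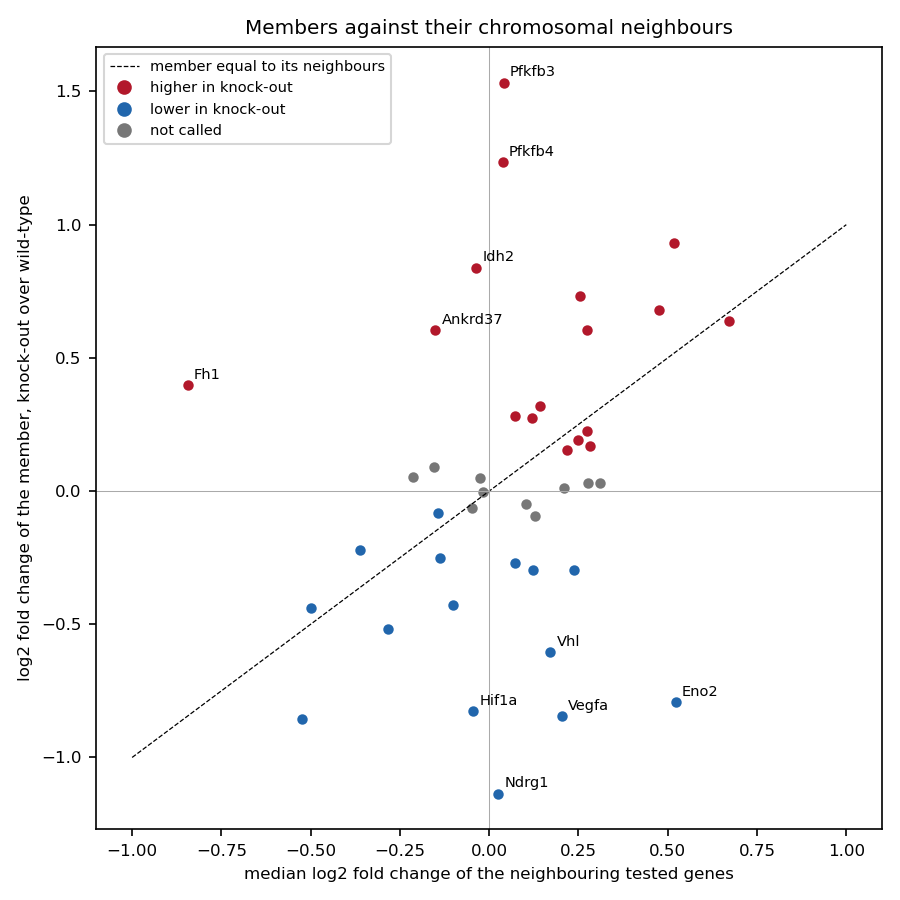
Log2 fold change of each of the 42 genes (y axis) against the median of its 20 neighbouring tested genes, or 15 for Pdhb (x axis), coloured by call, with a dashed line of equality and names for the 10 genes beyond it by over 1.5-fold in their own direction. Fh1 and Eno2 lie on the opposite side of 0 from their neighbours.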

How the data were processed

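The authors deposited raw read counts per Ensembl gene, in 1 table of 6 polyA libraries of CT26 cells, where every gene is above 0 in at least 3. The labels' protocols name a directional (strand-marking) kit. The submitters' processing notes list, without versions or roles, fastp, STAR, HTSeq, Bowtie2, deepTools and SEACR and the build mm10; annotation release and strand setting: not given in the sources used here. Knock-out columns went to their group without a replicate number.

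Of 17718 identifiers, 17650 had a symbol, and 12078 tested genes were placed by symbol on RefSeq's GRCm38.p6 (mm10). Counts were filtered with filterByExpr (minimum count 10, minimum total 15), scaled with TMM and tested with edgeR 4.0.16 (robust quasi-likelihood; limma 3.58.1, R 4.3.3), adjusted over 13013 genes at 0.05. The SE comes from the F statistic, and 95% intervals from the SE. In CPM, 1 count is 0.0746 to 0.105. Library pairs of a group differed by 2.13 to 3.12 times the counting variance, and none was merged. The scripts were tested on simulated data.

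The 47 genes, the lists, the naming rule and the alternatives were chosen with earlier results of these data known. The rule gives every library's value for genes called at 1.5-fold or more and for Hk2, Pfkp, Pkm, Ldha, Hif1a, Arnt, Vhl, Pdha1 and Cs, and names 27 further pathway genes, of which Slc2a3, Ak4, Pc and Pdk2 were not tested and 1 is not reported here. Dld, Pdhx, Pfkfb1, Pfkfb2, Wsb1, Stc2, Ier3 and Hmox1, and values in every library of other genes, were added after they were seen. So were Zfp395, Bhlhe41, Tfrc, Suclg2, Dlst, the Sdhaf genes and the markers Lyz2 and Csf1r, whose values under the alternatives are not given. Alternatives were RLE, upper-quartile and library-size scaling, no filter, a mean CPM of at least 5, DESeq2 1.42.0, glmTreat against 1.5-fold, chromosome medians subtracted by an offset, each library left out and, for ratios, 1 count added.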

Additional observations from a re-analysis of the deposited data

How the results depend on the processing

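Against a 1.5-fold change, glmTreat called 2602 of 13013 genes in place of 8621, 10 of the 42 genes (5 higher, 5 lower) in place of 32, and 24 further pathway genes in place of 80. Of the genes called above with an estimate of 1.5-fold or more, Hk1 (glmTreat adjusted p = 0.0739), Pfkl (0.198), Vhl (0.563), Sucla2 (0.525) and Ankrd37 (0.658) were not called by it. Under the other alternatives these counts stayed within 1.5 times, and leaving out each library gave 31 to 33 of the 42 genes. Among the named genes called on the TMM scale or under the alternative, directions turned with upper-quartile scaling for Aldoa (0.15), Pkm (0.073), Mdh2 (0.11), Sdha (0.14) and Sdhd (0.021), and with library size alone for Aldoa (0.12), Pkm (0.037), Mdh2 (0.075) and Sdha (0.10). Relative to chromosome medians they turned for Egln1 (0.13), Pdhb (-0.15), Cs (-0.20) and Sdha (0.10). Idh3a and Ogdh (other scalings), Pdha1 (chromosome medians), Car9, Pfkfb2, Aldoa and Sdha also changed sign under at least 1 alternative without a call in either. The cause was not tested. The Pfkfb4 to Pfkfb3 difference ran from -0.73 to 0.067 when each library was left out, and it turned without wild-type replicate 2. No paired analysis was possible because the labels do not say whether the numbers of the knock-out columns are replicate numbers. Low counts limit Pfkfb3, Ankrd37, Aldoc and Adm.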
